A study of Mus musculus with 4 samples.

Results

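The comparison described here is the main effect of Fancd2 loss in sorted haematopoietic stem cells of mice, read from 4 arrays. The Fancd2-null side held the array labelled as a Fancd2 knockout (Fancd2KO) and the array labelled as lacking Fancd2 and Foxo3a (DKO). The Fancd2-intact side held the wild-type array (WT) and the array labelled as a Foxo3a knockout (Foxo3aKO). Each genotype had 1 array, so no value has a replicate error. Each side joined 1 Foxo3a-present and 1 Foxo3a-null array, and all 4 arrays of the series entered. All mice were 2 months old. Marrow was flushed from leg bones, a Ficoll gradient gave the mononuclear fraction, and cells negative for lineage antigens and CD34 and positive for c-Kit and Sca-1 were sorted. The submitters call them SLAM cells, although CD150 and CD48, the usual SLAM antigens, do not appear in the stated gate. The number of mice behind each array, their sex and the knockout alleles are not given in the sources used here. Of 22180 genes with a probe set of their own on the Affymetrix Mouse Gene 2.0 ST array, 11068 had a mean over the 4 arrays at or above 5.51 log2, the median of all gene values, and were compared. In 3447 of these genes, 31.1%, both Fancd2-null arrays lay on the same side of both Fancd2-intact arrays. Such genes are called non-overlapping below, and the mean difference is the Fancd2-null mean minus the Fancd2-intact mean in log2 units. Arrays in arbitrary order would separate the sides in 2 of the 6 splits of 4 arrays, a share of 0.333. The 3447 are therefore not a count of genes that respond to Fancd2 loss.

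Fancd2 encodes a protein of the Fanconi anaemia pathway. A core complex of Fanconi proteins attaches ubiquitin to FANCD2 and its partner FANCI at stalled replication forks, and nucleases, translesion polymerases and homologous recombination then repair the crosslinked DNA. Inherited loss of the pathway in people leads to bone marrow failure, and haematopoietic stem cells are among the cells known to depend on it. Foxo3a, the product of Foxo3, is a forkhead transcription factor with roles in stem cell quiescence and stress resistance.

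The arrays were close in level, with medians over 41345 probe sets from 5.27 to 5.34 log2 and Pearson correlations between pairs from 0.965 to 0.969. Control probe sets for background whose probes are rich in G and C had a median of 6.18 in Fancd2KO and 6.39 in DKO, against 6.25 in WT and 5.74 in Foxo3aKO. The part of this lower Foxo3aKO background in any difference was not tested. Transcripts of the X-inactivation gene Xist and of the Y-linked genes Eif2s3y, Kdm5d and Uty were above the floor on all 4 arrays. In 477 genes with several probe sets above the floor, the probe sets disagreed about the mean difference with an SD of 0.31 log2, and by less than 0.58 in 95% of these genes. Where no label says that arrays came from separate animals, spread between them may be technical as well as biological.

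The targeted genes were examined before the rest. Fancd2 read 6.08 log2 in Fancd2KO and 5.84 in DKO, against 6.56 in WT and 6.67 in Foxo3aKO, a mean difference of -0.65. Both arrays labelled Fancd2-null lay below both others, with a gap of 0.48, and the signal stayed above the floor on every array. Foxo3 read 6.72 in Fancd2KO and 6.51 in DKO, against 6.62 in WT and 6.64 in Foxo3aKO. The mean difference of Foxo3 was -0.01 with overlapping sides, and its sign turned under other scalings. The Foxo3aKO array did not lie below WT for Foxo3. The exons under either probe set and the deleted exons are not given in the sources used here, so this Foxo3 signal does not check the labels, and directions that rest on Foxo3a loss rest on the labels alone.

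Small separations made up most of the 3447 non-overlapping genes. They split into 1769 higher on the Fancd2-null side (16% of genes compared) and 1678 lower (15.2%), and the median gap between the sides was 0.10 log2. A difference of at least 2-fold, 1 log2 unit, was met by 75 of them (0.678%). Only 9 of these were higher (0.0813%) and 66 were lower (0.596%), of which 7 and 49 carry symbols that can be named. Smpdl3b at 1.001 and Ckb at 0.96 stood just inside and just outside the threshold on the higher side, as did Gpr141 at -1.002 and Ptafr at -0.99 on the lower side. Fancd2KO minus WT and DKO minus Foxo3aKO share no array, and across the 11068 genes their Pearson r was -0.05, with the same sign in 5383 genes (48.6%). Genes are not independent replicates, so this is a description of 2 pairs of arrays. A limma fit with terms for Fancd2 and Foxo3a called 0 genes at a Benjamini-Hochberg adjusted p under 0.05 (0%), and the smallest adjusted p was 0.68. At an unadjusted limma p under 0.05 stood 451 genes (4.07%), 155 higher and 296 lower. An exact permutation of 2 arrays against 2 cannot give a two-sided p below 0.333. The values below are therefore levels on single arrays, and no gene in them passed a test.

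**Figure D1:**
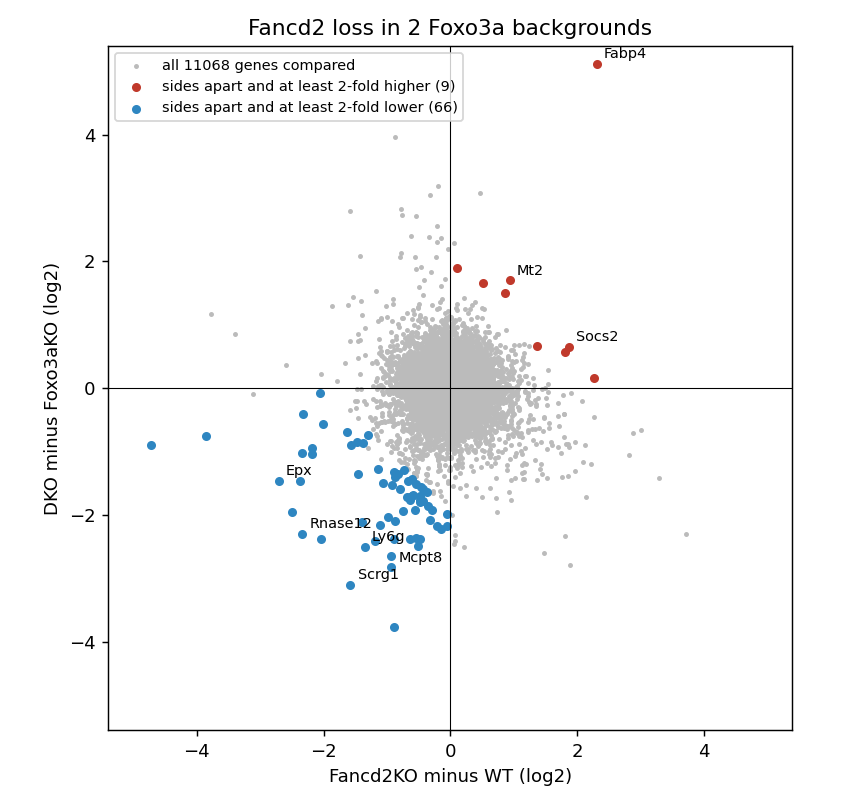
Each point is 1 of 11068 genes, with Fancd2KO minus WT on the x axis and DKO minus Foxo3aKO on the y axis, both in log2 units. Red points are the 9 genes at least 2-fold higher and blue points the 66 genes at least 2-fold lower on the Fancd2-null side with non-overlapping sides; the cloud as a whole shows no slope (r = -0.05).

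Eosinophil markers were the most uniform list among the lower genes. Of 10 eosinophil markers above the floor, 8 were lower on both Fancd2-null arrays and 0 higher, against 15.2% lower over all genes, and 7 of them were at least 2-fold lower (0.596% over all genes). Their median difference was -1.49, against 0.01 over all genes compared. This list and the others were chosen with earlier results of these data known, so the excess is a description and not a test. In a sorted population fewer cells of a type and less RNA per cell cannot be told apart. The ribonuclease gene Rnase12 read 5.37 log2 in Fancd2KO and 4.44 in DKO, against 7.70 in WT and 6.73 in Foxo3aKO, a 4.98-fold mean difference with both Fancd2-null arrays under the floor, so the size is not exact. Rnase12 passed the floor through the Fancd2-intact arrays alone, where it was high, and it is counted among the 8 and the 7. Prg3, which encodes a granule protein related to eosinophil major basic protein, read 7.84 in Fancd2KO and 6.35 in DKO, against 9.88 in WT and 8.73 in Foxo3aKO (-2.21). Epx, the eosinophil peroxidase, read 6.92 in Fancd2KO and 6.35 in DKO, against 9.62 in WT and 7.82 in Foxo3aKO (-2.09). In each of these genes WT was the highest array, Foxo3aKO came next, and the sides were at least 0.89 apart.

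Ear6, an eosinophil-associated ribonuclease, read 6.94 log2 in Fancd2KO and 6.81 in DKO, against 9.31 in WT and 8.28 in Foxo3aKO (-1.92). The lipoxygenase gene Alox15 read 6.72 in Fancd2KO and 6.84 in DKO, against 9.06 in WT and 7.87 in Foxo3aKO (-1.68). Prg2, the gene of major basic protein and the brightest of the list, read 10.86 in Fancd2KO and 10.69 in DKO, against 12.33 in WT and 11.54 in Foxo3aKO (-1.16). The chemokine Ccl6 (-1.29) and the lectin Siglecf (-0.45) had the same order of sides. Foxo3aKO lay below WT in all 8 lower members. The transcription factors Cebpe and Gata1, which other lineages also use, overlapped between the sides, and Il5ra, Ccr3 and Ear10 lay under the floor.

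The RefSeq promoters (GRCm38.p6, 250 bases before to 50 after the gene's start) of Prg3 and Epx are shown because both are lower granule genes with the same order of arrays. The windows are chr2:84987965-84988264, plus strand, and chr11:87875487-87875786, minus strand. Capitals mark matches on either strand to AGATAA or TGATAA, letters of the site bound by GATA factors, with no overlap between matches.
Prg3: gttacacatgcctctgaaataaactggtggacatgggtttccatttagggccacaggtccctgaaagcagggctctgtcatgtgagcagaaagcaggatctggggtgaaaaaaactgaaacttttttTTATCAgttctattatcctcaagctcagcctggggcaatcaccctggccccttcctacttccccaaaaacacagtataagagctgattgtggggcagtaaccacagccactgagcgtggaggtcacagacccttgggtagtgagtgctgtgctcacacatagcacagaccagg
Epx: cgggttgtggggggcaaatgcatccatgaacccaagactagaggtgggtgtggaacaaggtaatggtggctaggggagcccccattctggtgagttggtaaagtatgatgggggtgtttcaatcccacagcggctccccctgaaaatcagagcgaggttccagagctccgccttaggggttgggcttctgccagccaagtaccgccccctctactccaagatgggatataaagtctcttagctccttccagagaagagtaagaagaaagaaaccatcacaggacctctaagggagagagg
Prg3 held 1 match and Epx held 0. A match stood in 19% of 27025 promoters of that length and in 2 of the 7 eosinophil markers with a promoter in the table. A match is a description of the letters in this window.

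Among basophil and mast cell genes the lower members mostly had a different order of arrays. Of 9 markers above the floor 5 were lower (55.6%, against 15.2% over all genes) and 0 higher, with a median of -0.28. A mean difference above 0 stood in 3 of the 9, and 5 had the same sign in both Foxo3a backgrounds. A further 9 members, among them the high-affinity IgE receptor genes Fcer1a and Ms4a2, lay under the floor. Mcpt8, the basophil protease, read 7.60 log2 in Fancd2KO and 6.56 in DKO, against 8.53 in WT and 9.39 in Foxo3aKO (-1.88). Prss34, another basophil protease, read 7.46 in Fancd2KO and 6.84 in DKO, against 8.44 in WT and 8.87 in Foxo3aKO (-1.51). Foxo3aKO was the highest array in both genes, unlike in the eosinophil genes. The mast cell carboxypeptidase gene Cpa3 differed by -0.84, the histamine-forming enzyme gene Hdc by -0.80 and Kit, the receptor used in the sort, by -0.20.

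Neutrophil genes are described by granule class, a grouping made after their values were seen. Of 21 markers, all above the floor, 14 were lower on both Fancd2-null arrays (66.7%, against 15.2% over all genes) and 1 was higher. At least 2-fold lower were 5 (0.596% over all genes), and the median difference was -0.57. Ly6g, the surface antigen Gr-1 antibodies bind, read 8.40 log2 in Fancd2KO and 7.96 in DKO, against 9.75 in WT and 10.47 in Foxo3aKO (-1.93). Mmp9, a tertiary granule metalloproteinase, read 8.84 in Fancd2KO and 8.99 in DKO, against 9.71 in WT and 10.39 in Foxo3aKO (-1.14). Mmp8, a secondary granule collagenase, read 10.44 in Fancd2KO and 10.36 in DKO, against 10.91 in WT and 11.92 in Foxo3aKO (-1.01). Foxo3aKO was the highest array in all 14 lower genes. The resistin-like gene Retnlg (-1.22), the chemokine receptor gene Cxcr2 (-1.03), the secondary granule genes Ltf (-0.73), Camp (-0.57), Lcn2 (-0.56) and Ngp (-0.52) and the calprotectin gene S100a9 (-0.33) had non-overlapping sides too.

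Genes of primary granules, which form at the promyelocyte stage, stood elsewhere. Mpo, the myeloperoxidase gene, read 11.59 log2 in Fancd2KO and 11.77 in DKO, against 11.41 in WT and 11.65 in Foxo3aKO (0.15). Elane, which encodes neutrophil elastase, read 10.72 in Fancd2KO and 11.11 in DKO, against 10.11 in WT and 10.79 in Foxo3aKO (0.47). Prtn3, the proteinase 3 gene, read 9.88 in Fancd2KO and 9.86 in DKO, against 9.63 in WT and 9.59 in Foxo3aKO (0.26). Prtn3 alone of these had non-overlapping sides, and Ctsg, the cathepsin G gene, overlapped at 0.23. Olfm4, a secondary granule gene with a mean difference of -1.20, owed it to the Foxo3aKO array at 9.46, with the other arrays between 6.997 and 7.26.

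**Figure D2:**
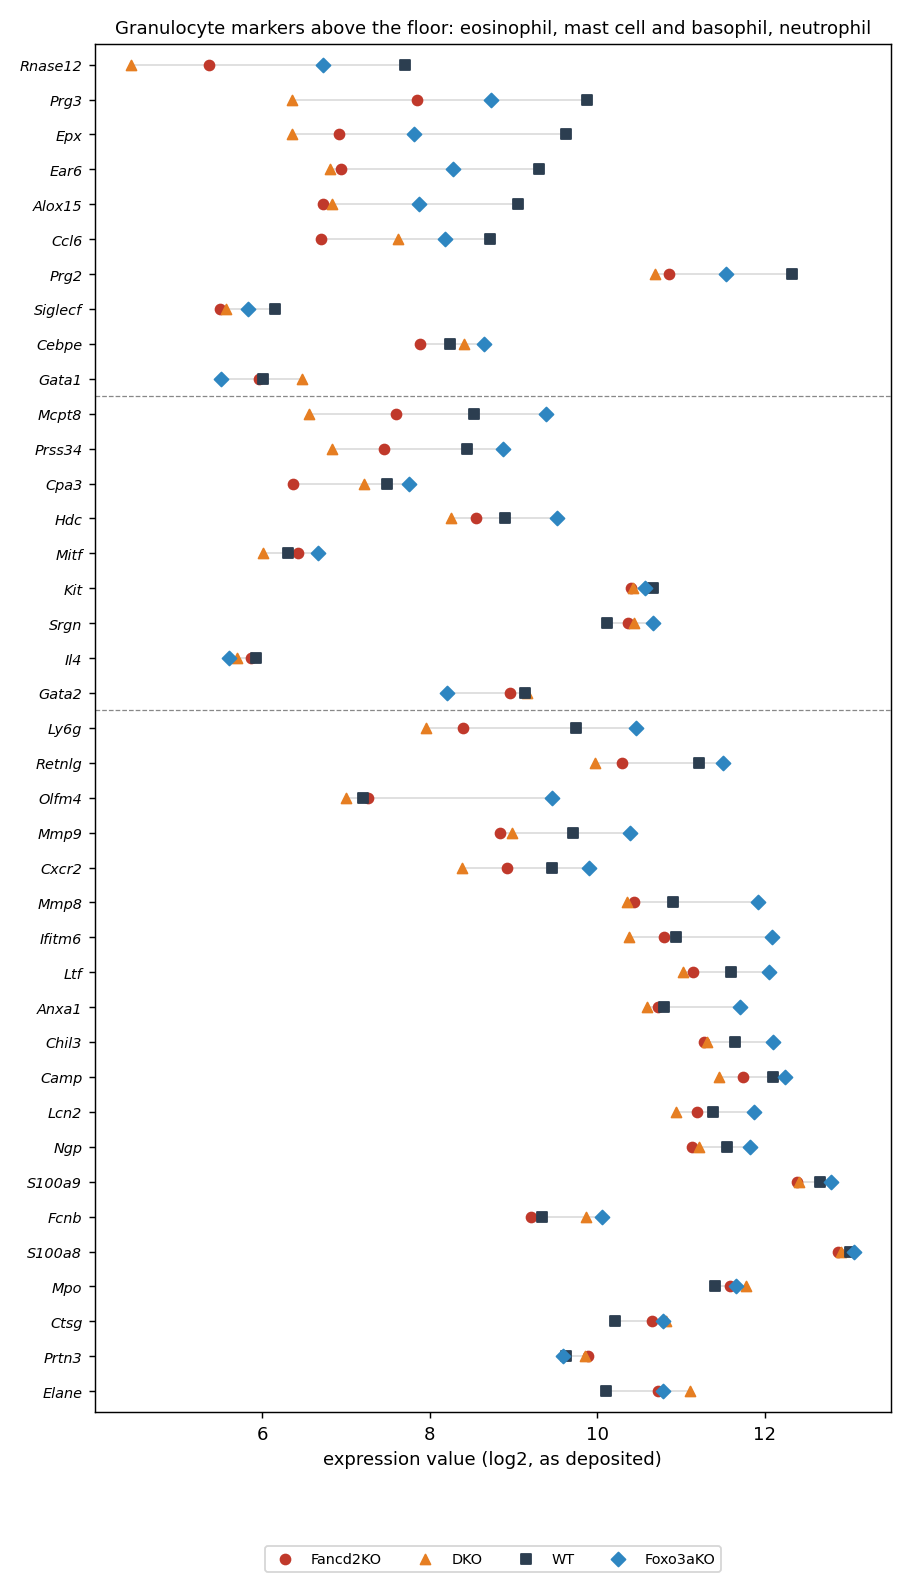
Values on each array (log2, x axis) of the eosinophil, mast cell and basophil, and neutrophil markers above the floor, each block sorted by mean difference and split by dashed lines. Red circles (Fancd2KO) and orange triangles (DKO) lie left of dark squares (WT) and blue diamonds (Foxo3aKO) in 8 of 10 eosinophil genes and in 14 of 21 neutrophil genes (Cebpe, on both lists, is drawn among the eosinophil markers), while Mpo, Ctsg, Prtn3 and Elane at the bottom do not show this order.

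Monocyte genes were split. Of 18 monocyte and macrophage markers above the floor 5 were lower and 1 higher, 33.3% against 31.1% over all genes. Their median was 0.16, and 11 of the 18 had a mean difference above 0. F13a1, coagulation factor XIII subunit A, read 7.40 log2 in Fancd2KO and 6.67 in DKO, against 7.88 in WT and 9.05 in Foxo3aKO (-1.43). Ccr2, the chemokine receptor of classical monocytes, read 7.12 in Fancd2KO and 7.04 in DKO, against 7.84 in WT and 8.21 in Foxo3aKO (-0.95). Itgam, the CD11b gene (-0.91), Ly6c2 (-0.73) and the lysozyme gene Lyz2 (-0.44) were also lower, and in all 5 lower genes Foxo3aKO was the highest array. Vcam1, an adhesion molecule of macrophages and stroma, was the higher member at 0.67. Non-classical monocyte genes had a median of 0.64, which rests on the DKO array: Fcgr4, an Fc receptor gene, read 5.71 in Fancd2KO and 9.97 in DKO, against 5.90 in WT and 6.78 in Foxo3aKO. Fabp4 and Hes1 were the 2 of 18 members with non-overlapping sides, 11.1% against 31.1% over all genes, and Fabp4 passed the floor through the Fancd2-null arrays alone.

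Further genes among the largest lower differences had values in this range. Scrg1, a small secreted protein gene, read 6.38 log2 in Fancd2KO and 5.65 in DKO, against 7.95 in WT and 8.75 in Foxo3aKO, the widest gap of the nameable lower genes at 1.58 and a 5.07-fold mean difference. The stefin gene Stfa3 read 6.43 in Fancd2KO and 4.45 in DKO, against 7.32 in WT and 8.23 in Foxo3aKO (-2.33). Cstdc4, of the same cystatin-like family, read 7.27 in Fancd2KO and 7.31 in DKO, against 8.21 in WT and 9.95 in Foxo3aKO (-1.79). Both families have near-identical copies, whose signals the probe sets may share. The same holds for the multicopy genes Srsy (-2.22), whose 7 probe sets differed by -1.84 to -2.51, and Astx5 (-1.80), whose 5 probe sets differed by -1.61 to -1.82. In both genes some probe sets gave identical values, so they are not separate readings. Both Fancd2-null arrays lay under the floor for Srsy, at 5.17 in Fancd2KO and 4.79 in DKO. Srsy passed the floor through the Fancd2-intact arrays alone, where it was high, so its size is not exact. Gapt, an adaptor gene of haematopoietic cells, differed by -1.21 with a gap of 1.02. H2-Q10, a class I histocompatibility gene, differed by -1.28 by its brighter probe set, while its other probe set overlapped at -0.21.

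Of all 66 genes at least 2-fold lower, Foxo3aKO lay above WT in 47 and below WT in 19. The granulocyte and monocyte lists together hold 57 genes above the floor, and 15 of the 66 are on them. Without those lists 51 genes remained at least 2-fold lower and 9 at least 2-fold higher, a count added after the data were seen. Others outside the lists, named after their values were seen, included the chemokine receptor gene Ccr1 (-1.45), the fibronectin gene Fn1 (-1.50), the metalloproteinase gene Adam8 (-1.19), the chitinase-like gene Chil1 (-1.34) and Ceacam10 (-1.51). Averaged over the 21 neutrophil markers, levels were 10.35 log2 in Fancd2KO and 10.32 in DKO, against 10.61 in WT and 11.19 in Foxo3aKO. The 10 eosinophil markers averaged 7.07 in Fancd2KO and 6.96 in DKO, against 8.70 in WT and 7.91 in Foxo3aKO. The 18 monocyte markers averaged 7.26 in Fancd2KO and 8.20 in DKO, against 7.54 in WT and 7.89 in Foxo3aKO, and alone of these lists overlapped between the sides. The part of mature myeloid cells carried into the sort in these differences was not tested. A list of lineage antigen genes was drawn up here and not taken from the labels. Of its 7 members above the floor 4 were lower and 1 higher, 71.4% against 31.1% over all genes. Ly6g, Itgam, Ly6c2 and the transferrin receptor gene Tfrc (-0.21) were lower and Nkg7 was higher (0.12). Cd3e, Cd4, Cd8a and Ms4a1 lay under the floor.

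Lymphoid-primed progenitor genes leaned to the lower side, though their joint share of non-overlapping members was near that of all genes. Of 20 members above the floor 5 were lower (25%, against 15.2% over all genes) and 1 higher (5%, against 16%). Together these made 30%, against 31.1% over all genes, with a median of -0.16. A mean difference below 0 stood in 16 of the 20, and 9 had the same sign in both Foxo3a backgrounds. Flt3, the cytokine receptor that marks multipotent progenitors and is absent from long-term stem cells, read 7.34 log2 in Fancd2KO and 6.67 in DKO, against 8.97 in WT and 7.37 in Foxo3aKO (-1.17). Its sides were 0.03 apart, so WT alone stood high, and the separation ended when each array was centred on its median. Satb1, a chromatin organiser of lymphoid priming, read 5.80 in Fancd2KO and 5.38 in DKO, against 6.68 in WT and 6.33 in Foxo3aKO (-0.91). The lymphotoxin gene Ltb (-0.51), Notch1 (-0.50) and Sox4 (-0.43) had non-overlapping sides, in Ltb not under quantile or cyclic loess normalisation, and Cnn3 was the higher member (0.17). Dntt, the terminal transferase gene, overlapped at -1.12. B cell markers had a median of -0.32 with 1 of 10 lower, Cd79a (-0.71), and 1 higher, Vpreb2 (0.20), together 20%. The sides of Cd79a were 0.04 apart and overlapped when each array was centred on its median.

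On the higher side Fabp4, a carrier of fatty acids in macrophages, endothelium and adipocytes, had the largest mean difference of the 11068 genes compared. Fabp4 read 7.47 log2 in Fancd2KO and 9.22 in DKO, against 5.16 in WT and 4.10 in Foxo3aKO. The mean difference was 3.71 (13.1-fold) with a gap of 2.31, and both Fancd2-intact arrays lay under the floor, so the size is not exact. Fabp4 passed the floor through the Fancd2-null arrays alone, where it was high. It is counted on the lipid uptake, non-classical monocyte and endothelial lists. Of 18 genes of Pparg and lipid uptake above the floor 6 were higher and 1 lower, 38.9% against 31.1% over all genes, with a median of 0.18. Apoe, the apolipoprotein E gene, read 6.74 in Fancd2KO and 7.68 in DKO, against 6.63 in WT and 6.46 in Foxo3aKO (0.67). The sterol exporter gene Abcg1 (0.31), the lipase gene Lpl (0.30), the carnitine transferase gene Cpt1a (0.27) and the exporter gene Abca1 (0.18) completed the higher members. The receptor gene Adipor1 was the lower one (-0.43), with Fancd2KO minus WT at -0.03 and DKO minus Foxo3aKO at -0.83. Lipg, endothelial lipase, lay under the floor on average but read 5.46 in Fancd2KO and 7.81 in DKO, against 4.28 in WT and 4.34 in Foxo3aKO. Pparg, the nuclear receptor that drives Fabp4 in adipocytes and macrophages, read 4.50 in Fancd2KO and 7.83 in DKO, against 4.50 in WT and 4.23 in Foxo3aKO. DKO alone was high for Pparg and for the phospholipid transfer gene Pltp (8.38, against 5.77 to 6.10 on the other arrays). Outside DKO Pparg lay under the floor, and its part in the Fabp4 values was not tested.

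Metallothioneins, small cysteine-rich proteins that bind zinc and cadmium, were higher on both Fancd2-null arrays. Mt2 read 8.02 log2 in Fancd2KO and 8.59 in DKO, against 7.08 in WT and 6.89 in Foxo3aKO, a 2.50-fold mean difference with a gap of 0.94. Its neighbour Mt1, named after its values were seen, read 8.85 in Fancd2KO and 8.56 in DKO, against 7.70 in WT and 8.23 in Foxo3aKO (0.74). Both genes had non-overlapping sides, and both lie close together on chromosome 8. Their RefSeq promoters (GRCm38.p6) are shown because metal-responsive transcription is known to act there. The windows are chr8:94172368-94172667, plus strand, and chr8:94178839-94179138, plus strand. Capitals mark matches on either strand to TGCACNC or TGCGCNC, the core of the metal response element, which do not overlap each other here.
Mt2: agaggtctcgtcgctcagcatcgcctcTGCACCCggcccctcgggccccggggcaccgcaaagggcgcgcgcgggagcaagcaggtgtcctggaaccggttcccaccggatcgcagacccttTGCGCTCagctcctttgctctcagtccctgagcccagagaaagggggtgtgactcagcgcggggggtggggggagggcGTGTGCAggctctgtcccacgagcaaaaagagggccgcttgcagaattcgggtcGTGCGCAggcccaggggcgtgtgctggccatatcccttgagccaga
Mt1: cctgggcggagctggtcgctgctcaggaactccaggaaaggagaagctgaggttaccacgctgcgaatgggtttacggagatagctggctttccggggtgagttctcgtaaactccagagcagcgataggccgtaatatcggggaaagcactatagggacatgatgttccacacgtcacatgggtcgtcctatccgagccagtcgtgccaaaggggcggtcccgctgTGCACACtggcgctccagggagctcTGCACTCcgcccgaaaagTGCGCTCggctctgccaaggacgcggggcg
Mt2 held 4 matches and Mt1 held 3. Across 27025 promoters of that length 25.6% held at least 1 match, 2% at least 3 and 0.503% at least 4. Matching letters describe these windows and do not show binding in these cells.

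Antioxidant genes were counted beside them. Of 25 above the floor 8 were higher and 1 lower (Txnrd2, -0.22), against 16% higher over all genes, with a median of 0.04. Hmox1, the haem oxygenase gene, read 7.87 log2 in Fancd2KO and 8.87 in DKO, against 7.63 in WT and 7.62 in Foxo3aKO (0.75). The glutathione synthesis genes Gclc (0.36) and Gclm (0.27), the peroxidase genes Prdx2 (0.30), Gpx7 (0.29) and Gpx1 (0.10), and the regulators Keap1 (0.16) and Nfe2l2 (0.15) were the others. Hmox1 apart, these differences were under 0.58, the bound below which 95% of the disagreements between probe sets lay.

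Stem cell genes were mostly near 0, with a few well above it. Of 45 above the floor 10 were higher and 1 lower, 24.4% against 31.1% over all genes, and the median was 0.05. Socs2, an inhibitor of cytokine signalling, read 7.90 log2 in Fancd2KO and 7.50 in DKO, against 6.03 in WT and 6.85 in Foxo3aKO (1.26), and its other probe set gave 0.49 with the same order of sides. Vwf, the von Willebrand factor gene that marks platelet-biased stem cells, read 7.27 in Fancd2KO and 7.22 in DKO, against 6.19 in WT and 6.54 in Foxo3aKO (0.87). Slamf1, the CD150 gene, read 8.36 in Fancd2KO and 7.81 in DKO, against 7.25 in WT and 7.51 in Foxo3aKO (0.71). WT was the lowest array in all 3 genes and Fancd2KO the highest. The transglutaminase gene Tgm2 (0.54), the adhesion gene Esam (0.44), the zinc finger gene Zfp521 (0.29), Gfi1 (0.23), Mecom (0.21), Gstm1 (0.21) and Procr (0.19), the gene of the endothelial protein C receptor, were the other higher members. Kit was the lower one, and Meis1, Hlf, Runx1, Erg and Bmi1 overlapped. Cd34, whose antigen the gate excludes, overlapped at 0.09. Thy1 at -0.04 and Cd48 at -0.05, antigens outside the stated gate, overlapped too.

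Adhesion and platelet genes shared members with these. Of 24 adhesion and niche genes 8 were higher and 5 lower, 54.2% against 31.1% over all genes, with a median of 0.04. Selp, the P-selectin gene, read 8.27 log2 in Fancd2KO and 7.07 in DKO, against 6.72 in WT and 6.78 in Foxo3aKO (0.92). Itga2b, the CD41 integrin gene (0.41), Cd81 (0.28), Itga5 (0.16), Itgb1 (0.12) and Rac1 (0.12) were also higher, while the CXCL12 receptor gene Cxcr4 (-0.43), Cd44 (-0.38), Cd9 (-0.38) and Rac2 (-0.31) were lower. Of 17 platelet and megakaryocyte markers 4 were higher and 3 lower, 41.2% against 31.1% over all genes. The higher ones were Selp, Vwf, Rab27b (0.42) and Itga2b. The 3 lower ones included P2rx1 (-0.53) and Cd9. Ppbp (-1.60) and Thbs1 (-1.15) overlapped, since WT alone was high for Ppbp at 8.66 and Foxo3aKO alone for Thbs1 at 10.003. Endothelial and stromal markers were higher in 4 of 9 members above the floor, Fabp4, Vwf, Cxcl12 (0.71) and Sparc (0.69), with 0 lower, 44.4% against 31.1% over all genes. Sparc read 6.49 in Fancd2KO and 5.28 in DKO, against 5.17 in WT and 5.22 in Foxo3aKO. Its difference rests on the Fancd2KO array, the other arrays lay under the floor, and the sides overlapped once values below the floor were raised to it. Their defining members Cdh5, Kdr, Col1a1 and Pdgfrb lay under the floor.

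Hes1, a target of Notch signalling, read 7.54 log2 in Fancd2KO and 6.41 in DKO, against 5.72 in WT and 5.84 in Foxo3aKO (1.19). Tjp1, a tight junction scaffold gene, read 7.75 in Fancd2KO and 7.40 in DKO, against 6.38 in WT and 6.73 in Foxo3aKO (1.01). Ckb, the brain-type creatine kinase gene, read 7.18 in Fancd2KO and 7.13 in DKO, against 5.93 in WT and 6.46 in Foxo3aKO (0.96). Within the Fancd2-null side these genes differed little in Ckb and Tjp1 and by more than 1 log2 unit in Hes1. The sialomucin gene Podxl (0.93), the tubulin gene Tubb6 (0.90), the lactate transporter gene Slc16a1 (0.89), Insyn2a (0.84), Msl3l2 (0.75), the ficolin gene Fcna (0.67) and Aldh1l1 (0.64), a folate enzyme gene, had gaps of 0.54 to 0.78. For Fcna both Fancd2-intact arrays lay under the floor, at 5.42 in WT and 5.29 in Foxo3aKO. Fcna passed the floor through the Fancd2-null arrays alone, where it was high. For Podxl the WT array lay under the floor at 5.35. Smpdl3b owed its 1.001 to DKO at 7.66, since Fancd2KO at 5.78 was 0.01 above Foxo3aKO. Rsph3a owed its 1.22 to Fancd2KO at 8.47, and its other probe set overlapped at -0.13.

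**Figure D3:**
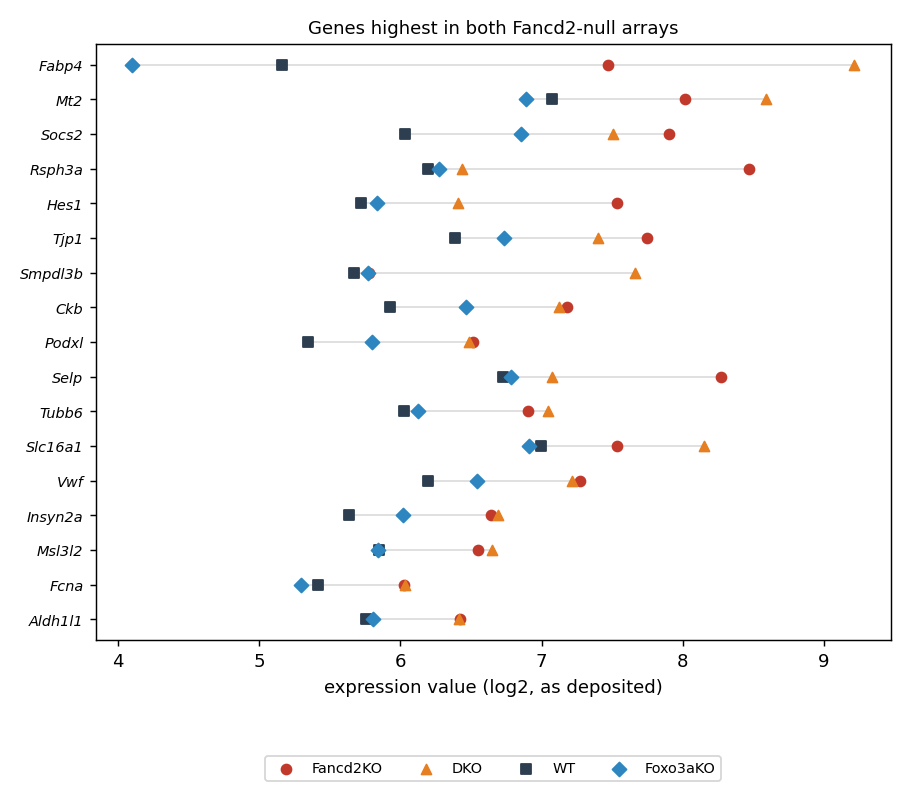
Values on each array (log2, x axis) of the nameable genes with the largest mean differences or widest gaps on the higher side, sorted by mean difference. Fancd2KO (red circles) and DKO (orange triangles) lie right of WT (dark squares) and Foxo3aKO (blue diamonds) in every gene shown, by 2.31 for Fabp4 and by 0.01 for Smpdl3b.

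Fanconi and crosslink repair genes other than Fancd2 showed small differences in both directions. Of 24 above the floor 6 were higher and 4 lower, 41.7% against 31.1% over all genes, with a median of 0.02 and 0 members at 2-fold. Fancg, a core complex subunit gene, read 7.40 log2 in Fancd2KO and 6.89 in DKO, against 6.78 in WT and 6.42 in Foxo3aKO (0.54). Mad2l2, the gene of a translesion polymerase subunit, read 8.13 in Fancd2KO and 8.50 in DKO, against 8.07 in WT and 7.63 in Foxo3aKO (0.46). Fance, another core complex subunit gene, read 6.68 in Fancd2KO and 6.42 in DKO, against 7.03 in WT and 6.82 in Foxo3aKO (-0.37). The nuclease gene Ercc4 (0.31), Fancf (0.25), Wdr48 (0.13) and the deubiquitinase gene Usp1 (0.03) were higher and Faap24 (-0.18) and Rfwd3 (-0.14) lower. Fanci, the partner of Fancd2, overlapped at -0.09, as did Fancl at -0.06 and Slx4 at -0.09. Fancd2 itself is one of the 4 lower members.

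Homologous recombination genes were higher in 4 of 24 cases, 16.7% against 16% over all genes, and lower in 0, with a median of 0.03. These were the replication protein A gene Rpa2 (0.47), Rad54l (0.39), Rad51b (0.21) and Exo1 (0.18, a separation lost when each array was centred on its median), while Brca1, Brca2 and Palb2 overlapped. Among 32 damage checkpoint, end joining and excision repair genes 6 were higher and 2 lower, led by the helicase gene Ercc2 (0.54), Xrcc1 (0.32) and Parp1 (0.27) on the higher side and Xpa (-0.25) on the lower, together 25% against 31.1% over all genes. The separation of Parp1 was lost when each array was centred on its median. Aldehyde detoxification genes, whose substrates crosslink DNA, gave 1 higher (Aldh9a1, 0.21) and 1 lower (Aldh3b1, -0.41) of 9, or 22.2%. Aldh2 overlapped at -0.02 and Adh5 at 0.07. Of 19 p53 targets 1 was higher and 2 lower, 15.8% against 31.1% over all genes. Phlda3 was higher (0.62, or 0.15 without the DKO array), and the death receptor gene Fas (-0.80) and Trp53inp1 (-0.58) were lower. Cdkn1a, the p21 gene, read 10.22 log2 in Fancd2KO and 7.48 in DKO, against 7.21 in WT and 8.14 in Foxo3aKO, so its 1.17 rests on the Fancd2KO array. Cell cycle inhibitor and quiescence genes were higher in 1 and lower in 3 of 20, 20% against 31.1% over all genes. Hes1 was higher, and E2f5 (-0.43), Rbl1 (-0.27) and Dyrk1a (-0.05) were lower. Dyrk1a was separated under the deposited scaling only among the scalings run.

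DNA replication and mitosis genes differed by less than 0.65 log2 throughout. Of 37 replication genes, all above the floor, 8 were higher and 2 lower, 27% against 31.1% over all genes, with a median of 0.05. Fen1, the flap nuclease gene, read 6.48 log2 in Fancd2KO and 6.31 in DKO, against 5.94 in WT and 5.62 in Foxo3aKO (0.62). Its other probe set, under the floor, overlapped at 0.001. Orc1, an origin recognition subunit gene, read 6.97 in Fancd2KO and 6.74 in DKO, against 6.15 in WT and 6.40 in Foxo3aKO (0.58). The helicase gene Mcm2 differed by 0.36, and the reductase subunit gene Rrm2 (-0.34) and the polymerase subunit gene Pole2 (-0.30) were the lower members. The other probe set of Rrm2 overlapped at -0.18. Of 33 mitosis genes 12 were lower and 5 higher, 51.5% against 31.1% over all genes, yet the median was -0.03 and its sign turned under quantile normalisation. The spindle genes Nusap1 (-0.29), Kif23 (-0.28), Bub1 (-0.21) and Ndc80 (-0.20) were lower and the kinase gene Aurkb higher (0.23). The proliferation marker Mki67 differed by -0.11.

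Metabolic and stress lists stayed near 0. Of 50 respiratory chain genes 11 were higher and 6 lower, 34% against 31.1% over all genes, with a median of 0.06. The largest differences were in Ndufa9 (0.58) and Atp5j2 (0.48), complex I and ATP synthase subunit genes. Glycolysis and hypoxia genes were higher in 3 and lower in 2 of 22 (22.7%). Among them were Ndrg1 (0.59), Slc2a1 (0.36), Pdk1 (-0.51) and the lactate exporter gene Slc16a3 (-0.42). The other probe set of Pdk1 overlapped at -0.30, and that of Slc2a1, under the floor, at 0.09. Heat shock genes were higher in 5 and lower in 0 of 20 (25%), led by Cryab (0.69) and Stip1 (0.41). FOXO targets were lower in 3 of 32 (9.38%), Trp53inp1, the cyclin gene Ccng2 (-0.38) and Insr (-0.20, not separated after median centring), and higher in 0. TGF-beta, SMAD and Id genes were higher in 5 and lower in 1 of 23 (26.1%), with the betaglycan gene Tgfbr3 at 0.62 and Smad1 at 0.29. Cytosolic ribosomal protein genes, higher in 5 and lower in 6 of 52, telomerase and shelterin genes, higher in 2 and lower in 1 of 18, and imprinted genes, higher in 1 and lower in 2 of 10, stood below the 31.1% of all genes. The telomere end-binding gene Pot1a differed by -0.53 and the ribonucleoprotein gene Nhp2 by 0.60, and the imprinted receptor gene Igf2r by -0.48.

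**Figure D4:**
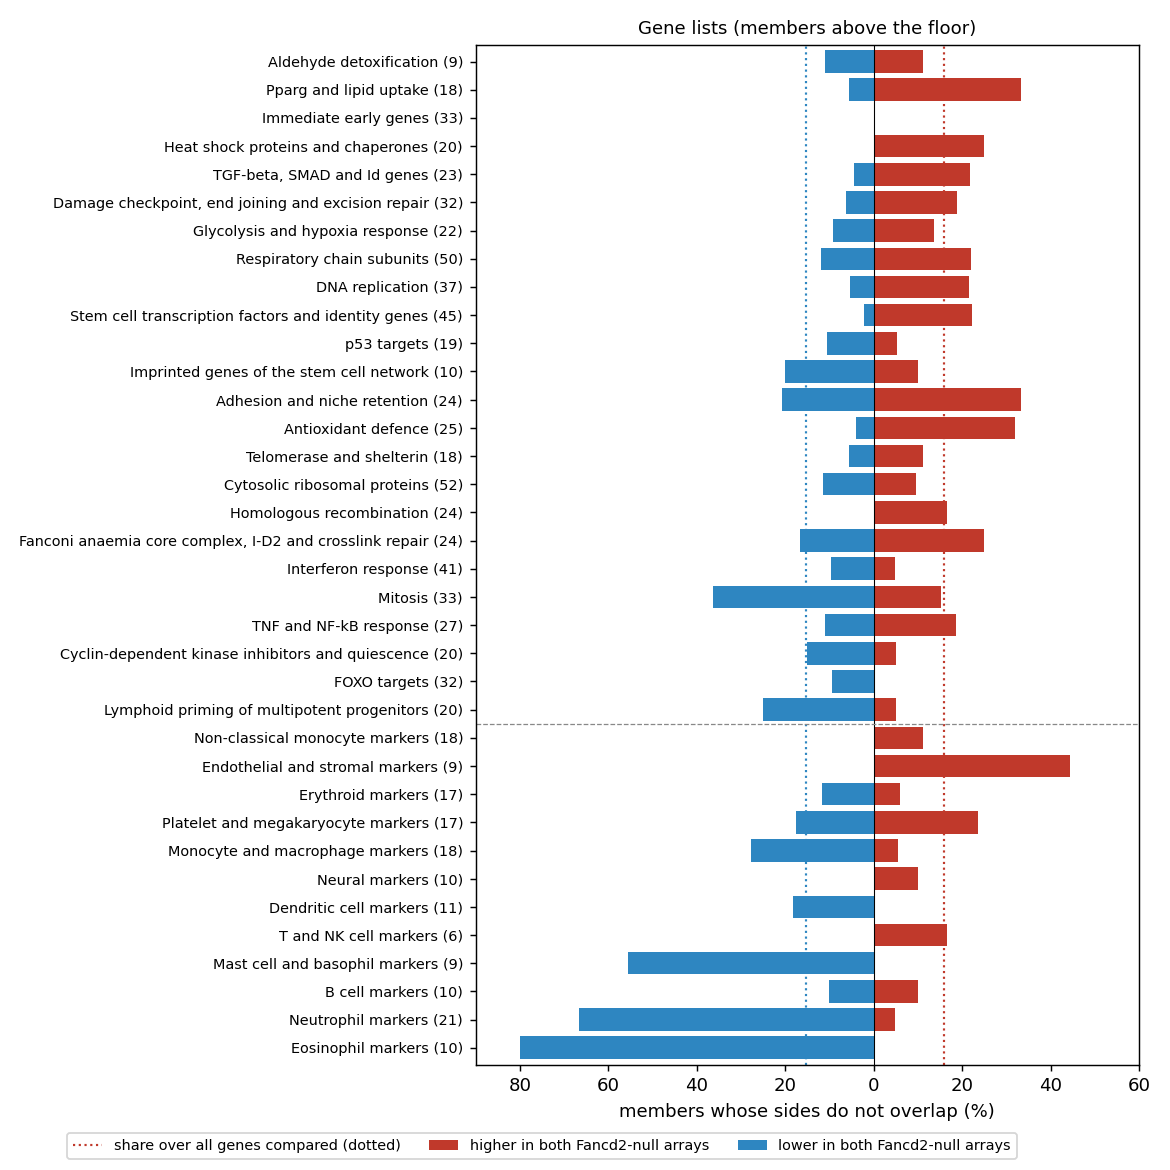
Share of each list's members above the floor (number in brackets) with non-overlapping sides, higher on the Fancd2-null side in red to the right and lower in blue to the left, in percent, with pathway lists above the dashed line and cell type lists below it. Dotted lines mark 16% and 15.2%, the shares over all genes compared; eosinophil, neutrophil, and mast cell and basophil markers reach furthest to the left, at 80%, 66.7% and 55.6%.

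Lists that respond quickly to handling or signals had no common direction across the Foxo3a backgrounds. Of 33 immediate early genes 0 had non-overlapping sides, against 31.1% over all genes. This held for no other of the 24 pathway lists. Nr4a1, an orphan nuclear receptor gene, read 11.05 log2 in Fancd2KO and 9.03 in DKO, against 8.23 in WT and 10.09 in Foxo3aKO. WT was the lowest array and Fancd2KO the highest, with Foxo3aKO between Fancd2KO and DKO. Interferon response genes were higher in 2 and lower in 4 of 41, 14.6% against 31.1% over all genes. Gbp3 (0.36), Psmb9 (0.19), Trim30a (-0.19, not separated after median centring) and Irf1 (-0.10) were among them. TNF and NF-kB genes were higher in 5 and lower in 3 of 27, 29.6% against 31.1% over all genes. On the higher side stood Vcam1, the inhibitor gene Nfkbie (0.40), Nfkb2 (0.39), Bcl3 (0.35) and Relb (0.33). On the lower side stood the chemokine genes Ccl3 (-0.66) and Ccl4 (-0.56) and Birc2 (-0.24). Fancd2KO minus WT was only -0.02 in Ccl3 and -0.015 in Ccl4, against -1.29 and -1.11 for DKO minus Foxo3aKO.

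**Figure D5:**
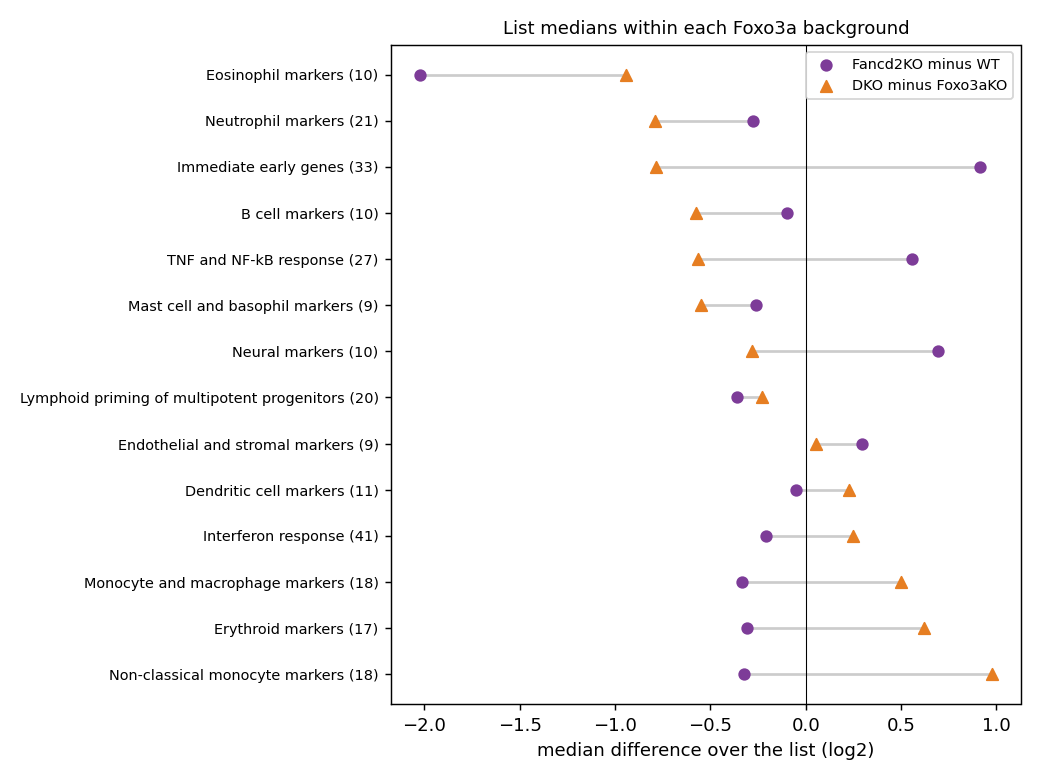
Median difference of each list (log2, x axis) for Fancd2KO minus WT (purple circles) and DKO minus Foxo3aKO (orange triangles), for pathway and cell type lists whose median reached 0.2 in size in either pair. Eosinophil, neutrophil and basophil medians lie below 0 in both pairs, while immediate early genes lie at 0.91 in the Foxo3a-present pair and -0.79 in the Foxo3a-null pair.

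Other cell type lists were near or below the share of all genes. Erythroid markers were higher in 1 and lower in 2 of 17, with the transcription factor gene Klf1 at -0.58 and the adducin gene Add2 at 0.28. Dendritic cell markers were lower in 2 of 11, Flt3 and the plasmacytoid lectin gene Siglech (-1.11), and higher in 0, while 6 of the 11 had a mean difference above 0 and the median was 0.09. Siglech read 5.63 in Fancd2KO and 4.81 in DKO, against 5.68 in WT and 6.99 in Foxo3aKO. Its sides were 0.05 apart, and its difference was -0.46 without the Foxo3aKO array. T and NK cell markers had 6 members above the floor, of which Nkg7 was higher, and neural markers had 10, of which Uchl1 was higher (0.19) by its brighter probe set, while its other probe set overlapped at -0.09.

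Genes beside Fancd2 on chromosome 6 were listed because a knockout bred from another strain can carry linked sequence of that strain; no strain is given in the sources used here. Of the 10 genes above the floor on each side of Fancd2, 2 were higher and 4 lower, 30%. Of the 50 above the floor on each side, 12 were higher and 15 lower, 27%. Around Foxo3 on chromosome 10 the same counts gave 30% and 29%. These shares lay close to the 31.1% of all genes compared, and 0 of the neighbours counted differed 2-fold. Neighbours under the floor were left out of the counts, so larger differences among them would not appear here. Atg7 (-0.38), Irak2 (-0.31), Brk1 (-0.23) and Camk1 (-0.17) were the lower and Sec13 (0.19) and Emc3 (0.11) the higher among the nearest genes.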

How the data were processed

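The deposited table holds log2 expression values per probe set of 4 Affymetrix Mouse Gene 2.0 ST arrays, 1 per genotype. The authors made these log2 values with the program Affymetrix Expression Console, which the submitters' processing notes name; its version and normalisation are not given in the sources used here. Of 41345 probe sets 23521 carry 1 gene symbol in the platform annotation, 1814 several and 16010 none. The brightest probe set stood for each of 22180 genes, and 11068 passed the floor of 5.51 log2 on the mean of 4 arrays. R 4.3.3 with limma 3.58.1 fitted Fancd2 and Foxo3a terms with 1 residual degree of freedom, which takes any interaction as error; the script was tested on simulated data. Promoter and motif searches used Python 3.11.15.

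Lists and members were chosen with earlier results of these data known. Named were Fancd2 and Foxo3, the 12 largest mean differences and 12 widest gaps in each direction, up to 4 non-overlapping members of each of 39 lists, and neighbours of Fancd2; further genes are named as list members. Predicted genes, clones, pseudogenes, small RNAs and receptor families of smell, taste and antigen binding (981 genes) were counted, not named. Symbols of 11010 compared genes matched RefSeq by Entrez number. Alternatives were other scalings, floors, fold thresholds and probe set rules, and leaving out each array. The number of arrays limits the precision.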

Additional observations from a re-analysis of the deposited data

Results flagged for a closer look

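Some lists moved in opposite directions in the Foxo3a-present pair (Fancd2KO minus WT) and the Foxo3a-null pair (DKO minus Foxo3aKO), with medians of at least 0.2 log2 in each. The difference between the pairs was not tested, since each pair has 1 array per genotype. The signs describe list medians, not every member. Immediate early genes had a median of 0.91 in the Foxo3a-present pair and -0.79 in the Foxo3a-null pair, with 32 and 2 of 33 members above 0. TNF and NF-kB genes stood at 0.56 and -0.56, and neural markers at 0.69 and -0.28 over the same pairs. The other lists had the opposite order: interferon response genes at -0.21 and 0.25, stem cell surface antigens at -0.26 and 0.24 (Kit, Cd34, Slamf1, Cd48, Flt3, Thy1 and Procr, of which Kit and Cd34 are in the stated gate), monocyte and macrophage markers at -0.34 and 0.50, non-classical monocyte markers at -0.32 and 0.98, and erythroid markers at -0.31 and 0.62. Erythroid markers lay above 0 in 1 of 17 cases in the Foxo3a-present pair and in 15 of 17 in the Foxo3a-null pair.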

How the results depend on the processing

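No paired analysis by replicate number was possible because each genotype had 1 array and the labels carry no such numbers; the Foxo3a term of the limma fit and the values within each Foxo3a background pair the arrays by Foxo3a status. Counts of non-overlapping genes, 1769 higher and 1678 lower, were 3993 and 3146 with no floor and 767 and 916 with the floor at the 75th percentile of gene values; leaving out each array in turn gave 3271 to 4343 and 3157 to 4027. The counts at 2-fold, 9 higher and 66 lower, were 17 higher with no floor and 1 higher and 35 lower at the 75th percentile. They were 104 and 255 at a 1.5-fold threshold, 1 and 18 at 3-fold, and 27 to 80 and 99 to 166 with an array left out. Fewer arrays make a separation easier by construction. limma called 0 genes at an adjusted p under 0.05 under every alternative run, leave-one-out fits included (0 to 0).

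The mean difference of Foxo3 turned to 0.0082 under quantile normalisation and median centring and to 0.10 in the Foxo3a-present pair; leaving out the Fancd2KO array gave -0.114 and leaving out the DKO array 0.0903. In that pair the aldehyde list turned to -0.068 and the non-classical monocyte list to -0.32, and B cell markers turned to 0.0789 at the 75th percentile; the cause was not tested. Of the 135 genes of the naming rule 117 kept their direction and separation under every processing alternative. Of the other 18, apart from Foxo3, the separation was lost with median centring in Cd79a, Exo1, Flt3, Insr, Parp1 and Trim30a, with quantile or cyclic loess normalisation in Ltb, with all of these scalings in Dyrk1a, with quantile normalisation or median centring in Peg10, with cyclic loess in Rpl34, Tert and Nnat, with the mean of probe sets in Nnat, Rpl29, Rps3a1, Rsph3a and Uchl1, and with values raised to the floor in Sparc. Scaling moved the median difference of all genes to at most 0.04.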
